A study of Homo sapiens with 9 samples.

Results

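The genes described are 10 of the 26485 listed in each deposited table, chosen by name: the BMP ligands BMP2 and BMP4, the BMP receptors BMPR1A and BMPR2, the inhibitors SMAD6 and CHRDL1, and the ID genes ID1, ID2, ID3 and ID4. The choice was made with earlier results of these data known. The cells were MDA-MB-231, a breast cancer line of the triple-negative class with mesenchymal features. RNA was sequenced from 9 libraries in 3 groups of 3, which carried a nonspecific (NS) shRNA, ASAH1 shRNA #1 or ASAH1 shRNA #2. All groups expressed a hairpin, and the treatment labels name no other agent. The study describes the 3 libraries of a group as biological replicates. There was 1 NS hairpin and 1 cell line, and whether the cells were pools or clones is not given in the sources used here. ASAH1 encodes acid ceramidase, the lysosomal enzyme that splits ceramide into sphingosine and a fatty acid, and each comparison asked what changed when its mRNA was lowered.

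Bone morphogenetic proteins are secreted dimers of the TGF-beta superfamily that assemble type I receptors such as BMPR1A with type II receptors such as BMPR2. The activated receptors phosphorylate SMAD1, SMAD5 and SMAD9, which enter the nucleus with SMAD4 and raise direct target genes. Among the best known targets are the ID genes and SMAD6, an inhibitory SMAD that feeds back on the receptors. CHRDL1 (chordin-like 1) is a secreted protein that binds BMPs outside the cell. ID proteins have a helix-loop-helix but no basic DNA-binding region, and they hold E proteins such as TCF3 and TCF12 away from DNA. In breast cancer lines ID1 and ID3 are known for their part in invasion and self-renewal.

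Upstream sequences of the direct targets ID1, ID2, ID3 and SMAD6 are shown because SMADs of the BMP branch are known to bind GC-rich motifs. The window of ID4, the remaining ID gene, is not shown. Each line gives the 250 bases before the gene's start on the gene's own strand, 5′ to 3′, from RefSeq on GRCh38.p14. RefSeq's start of ID2 lies inside the longer GENCODE span of the gene printed further on. Capitals mark GGAGCC on either strand (read as GGCTCC on the other strand) or GGCGCC, and these motifs cannot share letters with the shorter SMAD motif GTCT (AGAC on the other strand).
ID1, chr20:31605039-31605288, plus strand: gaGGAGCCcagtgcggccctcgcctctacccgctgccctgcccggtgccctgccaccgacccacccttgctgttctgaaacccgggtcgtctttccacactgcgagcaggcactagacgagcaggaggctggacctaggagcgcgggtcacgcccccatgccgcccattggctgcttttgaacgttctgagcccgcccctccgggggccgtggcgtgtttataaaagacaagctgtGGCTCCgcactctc
ID2, chr2:8681806-8682055, plus strand: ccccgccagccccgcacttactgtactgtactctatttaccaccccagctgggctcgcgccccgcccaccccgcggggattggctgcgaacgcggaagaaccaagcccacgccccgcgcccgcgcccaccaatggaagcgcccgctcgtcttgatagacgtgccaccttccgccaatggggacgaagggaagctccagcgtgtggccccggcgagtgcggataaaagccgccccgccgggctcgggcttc
ID3, chr1:23559502-23559751, minus strand: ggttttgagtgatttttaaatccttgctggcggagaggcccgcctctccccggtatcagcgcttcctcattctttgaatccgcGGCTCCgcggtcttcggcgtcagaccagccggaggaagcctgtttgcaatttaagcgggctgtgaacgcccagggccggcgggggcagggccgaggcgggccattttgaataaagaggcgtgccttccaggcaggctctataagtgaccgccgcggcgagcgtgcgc
SMAD6, chr15:66701986-66702235, plus strand: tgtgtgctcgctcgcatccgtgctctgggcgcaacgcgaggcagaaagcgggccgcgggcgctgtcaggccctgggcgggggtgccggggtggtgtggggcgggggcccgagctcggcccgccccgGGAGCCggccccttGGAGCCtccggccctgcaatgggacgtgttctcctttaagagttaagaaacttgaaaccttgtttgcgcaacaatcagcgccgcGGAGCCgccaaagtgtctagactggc

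The SMAD6 window held 3 copies of GGAGCC, whose first letters lay 124, 110 and 26 bases before the start. The ID1 window held 2 copies, at 248 and 14 bases, ID3 held 1, at 167 bases, and ID2 held 0. Across 35116 upstream windows of the same length, 39.6% held at least 1 of these six-letter motifs, 14.2% at least 2 and 4.55% at least 3. GTCT or AGAC occurred 3 times in the ID1 window and 2 times in each of the others, against 77.5% of all windows with at least 1. GC content was 66.0% for ID1, 69.2% for ID2, 62.0% for ID3 and 68.0% for SMAD6, against a median of 58.0%. The matches describe the letters of these windows, and sites further upstream were not searched. RefSeq windows were found for 9 of the 10 genes.

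The libraries held between 30989598 and 34867548 reads on genes with NS shRNA, between 23806003 and 39791698 with shRNA #1 and between 35653318 and 49659106 with shRNA #2. Values are normalized counts, that is reads divided by 1 size factor per library, and each knockdown is set against the NS values of its own table. The line's defining markers VIM, CD44, EGFR and AXL were present in every library, and of the 4 markers listed as low ESR1 and PGR had 3 reads or fewer in each, while ERBB2 (59.3 to 102 CPM, reads scaled to a common library size) and EPCAM (up to 38.4 CPM) were read. With shRNA #1 and shRNA #2, EGFR stood at 225% and 243% of NS (limma adjusted p = 9.02e-05 and 2.58e-05). VIM stood at 83.0% and 62.7% (limma adjusted p = 0.000309 and 6.32e-07) and AXL at 130% and 118% (limma adjusted p = 3.16e-05 and 0.00145). CD44 did not pass with either hairpin. ERBB2 stood at 62.1% and 75.2% of NS (limma adjusted p = 2.73e-06 and 0.000735) and EPCAM at 116% and 149% (limma adjusted p = 0.0362 and 0.000391). Of the markers of other cells, DCN (fibroblasts), CDH5 (endothelium) and CD3E (T cells) had 3 reads or fewer in every library, while COL1A1 (15.5 to 25.9 CPM), KDR (4.29 to 12.7 CPM), CD14 (6.21 to 33.3 CPM) and CD68 (24.0 to 96.8 CPM) led the fibroblast, endothelial and leukocyte lists. The leukocyte marker PTPRC had 1 to 8 reads, the endothelial VWF 3 to 14 and the fibroblast PDGFRA 1 to 6. Between these and the leading markers lay LUM (31 to 140 reads), COL3A1 (6 to 58) and PECAM1 (39 to 102). The summed level of the 5 fibroblast markers was 24.5 to 28.9 CPM with NS shRNA, 25.4 to 29.2 with shRNA #1 and 18.2 to 22.0 with shRNA #2. The 4 endothelial markers summed to 12.5 to 14.0, 11.7 to 15.4 and 5.77 to 7.24 CPM in the same order, and the 4 leukocyte markers to 91.4 to 102, 78.5 to 103 and 56.0 to 59.5 CPM. The sums were lower with shRNA #2, and single markers also moved with shRNA #1: CD14 fell to 22.5% of NS (limma adjusted p = 1.06e-07) and COL3A1 to 18.8% (adjusted p = 3.26e-05). CD68 was at 122% of NS with shRNA #1 (adjusted p = 0.0422) and 38.5% with shRNA #2 (adjusted p = 1.37e-06). The part of these markers in the results was not tested.

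The targeted gene ASAH1 (hg38, chromosome 8, 18055992 to 18084998, minus strand) was lowered by both hairpins. It stood at 4489 ± 45.4 normalized counts with NS shRNA and 1327 ± 51.9 with shRNA #1 (SD, n = 3 each), or 29.6% of NS. In the other table it stood at 4852 ± 57.9 with NS shRNA and 783 ± 22.6 with shRNA #2 (SD, n = 3 each), or 16.1% of NS. The log2 fold changes were -1.76 (SE 0.05, limma adjusted p = 9.49e-09) and -2.63 (SE 0.06, limma adjusted p = 5.42e-10).

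With shRNA #1, 8 of the 10 genes had enough reads to test, and all 8 were lower than with NS shRNA at an adjusted p below 0.05. Of all 14341 genes tested in that comparison 66.1% passed the threshold, 32.8% higher and 33.3% lower. With shRNA #2 the same 8 genes were tested, 7 were lower, 0 were higher and BMP4 did not pass. In that comparison 66.9% of 14250 genes passed, 33.5% higher and 33.4% lower. The median log2 fold change of the 8 tested genes was -1.95 with shRNA #1 and -0.95 with shRNA #2, beside medians of 0.0013 and 0.013 over all genes tested. The set was chosen with earlier results of these data known, so its shared direction is a description and not independent evidence. Both comparisons use the same 3 NS shRNA libraries, so they are not independent of each other. BMP2 and ID4 had too few reads to test in either comparison. In bulk RNA, fewer cells that express a gene and less RNA per cell cannot be told apart.

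**Figure D1:**
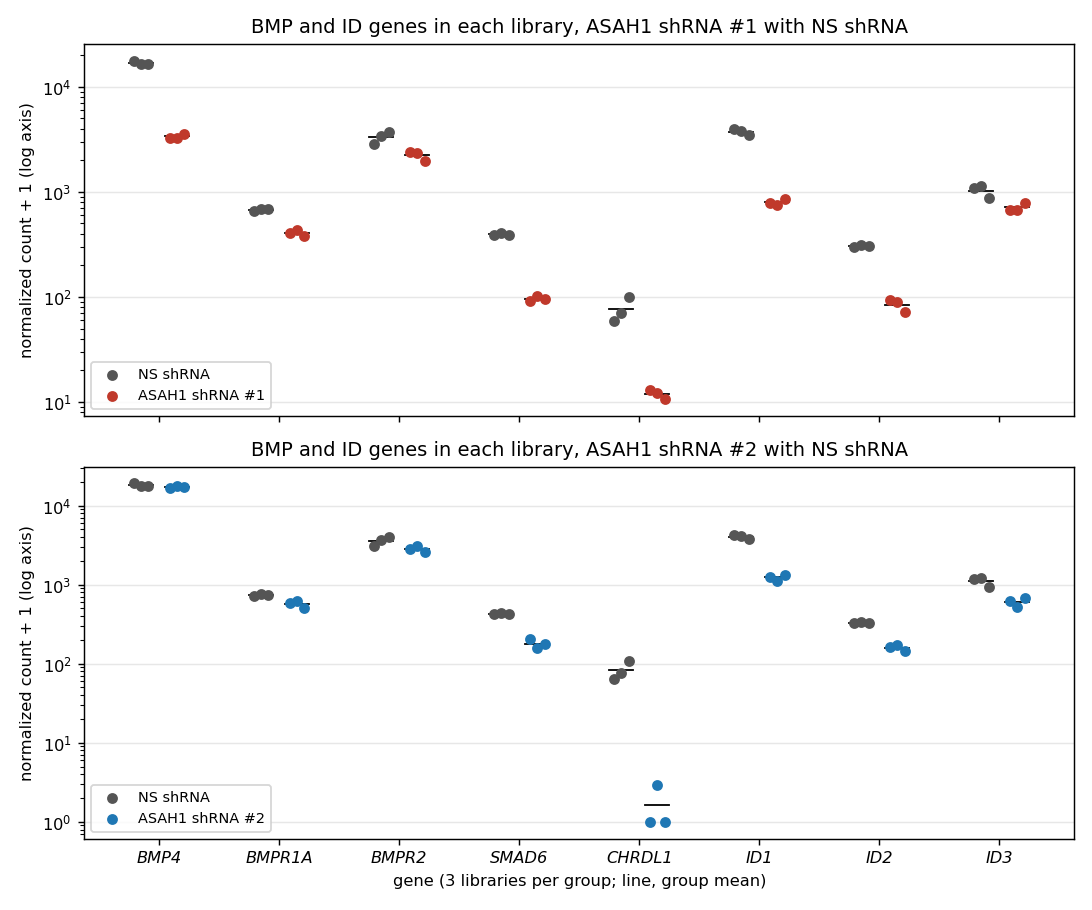
Normalized count plus 1, on a log axis, of the 8 tested genes in each library, with shRNA #1 (upper panel) and shRNA #2 (lower panel) beside the NS shRNA libraries of the same table. Points are libraries (3 per group) and lines are group means; BMP4 drops from 16882 to 3367 with shRNA #1 and stands at 17146 with shRNA #2, while ID1 drops in both panels.

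BMP4 (hg38, chromosome 14, 53949736 to 53958761, minus strand), the ligand with nearly all reads of the pair, fell with shRNA #1. In the NS shRNA libraries it had 17611, 16444 and 16591 normalized counts, and with shRNA #1 it had 3285, 3274 and 3541. All 3 knockdown libraries lay far below all 3 NS libraries, with 19.9% of the NS mean remaining. The mean fell from 16882 ± 635 to 3367 ± 151 (SD, n = 3 each), a log2 fold change of -2.33 (SE 0.05, limma adjusted p = 3.8e-09). In the table of shRNA #2 the NS libraries had 19003, 17850 and 17889 normalized counts and the knockdown libraries 16874, 17548 and 17017. The groups did not overlap, yet the knockdown mean was 94.0% of NS and the log2 fold change of -0.09 (95% interval -0.20 to 0.02) did not pass the test (limma adjusted p = 0.135). After rescaling to the upper quartile it was -0.13 and passed (adjusted p = 0.0371).

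BMP2, the other ligand (chromosome 20, 6767686 to 6780246, plus strand), was almost unread. It had 1, 0 and 2 reads with NS shRNA, 5, 10 and 1 with shRNA #1 and 0, 0 and 0 with shRNA #2. A count of 0 allows up to 3 reads in a library, so a fall with shRNA #2 was not detectable at this depth. The 0 reads in sum with shRNA #2 against 3 with NS shRNA set an upper 95% limit of 2.11 on their ratio (counting error only). The 16 reads with shRNA #1 against 3 with NS shRNA gave a ratio of 5.38 per unit of library size (95% interval 1.54 to 28.8, counting error only), and the groups overlapped.

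The type I receptor BMPR1A (chromosome 10, 86756596 to 86932825, plus strand) fell with both hairpins. It had 660.4, 692.9 and 678.6 normalized counts with NS shRNA and 402.5, 432.1 and 375.7 with shRNA #1, and these did not overlap. The mean was 59.6% of NS, a log2 fold change of -0.75 (SE 0.07, limma adjusted p = 1.76e-05). With shRNA #2 it had 583.3, 615.1 and 505.0 against 712.6, 752.1 and 731.7 with NS shRNA. The knockdown libraries were again all lower, at 77.6% of NS and a log2 fold change of -0.37 (SE 0.09, adjusted p = 0.00333). BMPR1A has the pseudogene copies BMPR1AP1 and BMPR1AP2, so reads that match a copy may be missing from its count.

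The type II receptor BMPR2 (chromosome 2, 202376327 to 202567751, plus strand) was spread more widely over the NS libraries than BMPR1A was. It had 2831, 3390 and 3680 normalized counts with NS shRNA and 2377, 2316 and 1979 with shRNA #1. The groups did not overlap, and the mean went from 3300 ± 432 to 2224 ± 214 (SD, n = 3 each), a log2 fold change of -0.57 (SE 0.10, limma adjusted p = 0.00082). With shRNA #2 it had 2824, 3111 and 2610 normalized counts against 3055, 3680 and 3968 with NS shRNA, and here the groups overlapped. The log2 fold change of -0.32 (SE 0.10) passed with an adjusted p of 0.0138. The call was lost when NS shRNA replicate 2 was left out (-0.29, limma adjusted p = 0.0544) and without the intensity trend (limma adjusted p = 0.0553).

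SMAD6 (chromosome 15, 66702236 to 66782849, plus strand), the intracellular inhibitor, fell with both hairpins. With NS shRNA it had 391.4, 405.3 and 387.8 normalized counts, and with shRNA #1 it had 90.93, 100.4 and 95.13, so that 24.2% of the NS mean remained. The log2 fold change was -2.04 (SE 0.09, limma adjusted p = 1.34e-07). In the table of shRNA #2 the values were 422.4, 440.0 and 418.1 with NS shRNA and 203.8, 155.5 and 175.3 with the hairpin. No library crossed between the groups in either table, and with shRNA #2 41.8% of NS remained, a log2 fold change of -1.26 (SE 0.11, adjusted p = 3.91e-06).

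CHRDL1 (chromosome X, 110673856 to 110795819, minus strand), the secreted inhibitor, was low in NS cells and lower still in both knockdowns. It had 56, 70 and 107 reads with NS shRNA, 9, 14 and 10 with shRNA #1 and 0, 2 and 0 with shRNA #2. The NS libraries differed among themselves, relative to their mean, by more than those of the other 7 tested members of this set, and all knockdown libraries lay below them. With shRNA #1 the normalized count went from 75.4 ± 20.9 to 11.0 ± 1.24 (SD, n = 3 each), 14.5% of NS, with a log2 fold change of -2.65 (SE 0.25, limma adjusted p = 1.17e-05). With shRNA #2, 2 reads stood against 233, a ratio of NS over knockdown of 134 per unit of library size (95% interval 36.6 to 1110, counting error only). The fitted log2 fold change of -5.81 (SE 0.49, limma adjusted p = 2.68e-06) depends on the pseudocount of 1 and gives no size.

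**Figure D2:**
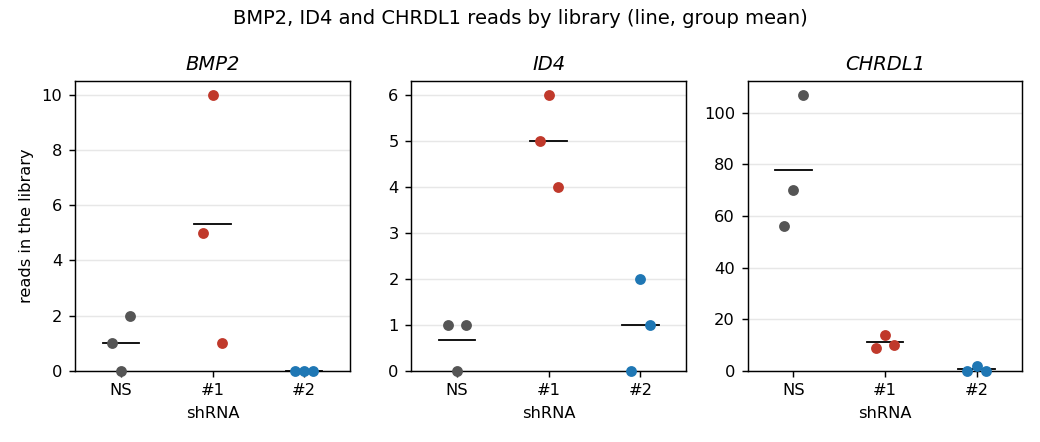
Reads per library of BMP2, ID4 and CHRDL1 by shRNA on linear axes of unequal range. Points are libraries (3 per group) and lines are group means. BMP2 and ID4 stay at 10 reads or fewer in every library, and CHRDL1 goes from 56 to 107 reads with NS shRNA to 2 or fewer with shRNA #2.

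ID1 (chromosome 20, 31605283 to 31606515, plus strand) was the ID gene with the most reads and the one with the deepest fall. With NS shRNA it had 3937, 3775 and 3456 normalized counts, and with shRNA #1 it had 784.9, 752.6 and 851.3. The mean fell from 3723 ± 245 to 796 ± 50.3 (SD, n = 3 each), 21.4% of NS, a log2 fold change of -2.22 (SE 0.07, limma adjusted p = 1.43e-08). In the table of shRNA #2 it had 4248, 4098 and 3726 with NS shRNA and 1265, 1098 and 1326 with the hairpin. The mean fell from 4024 ± 269 to 1230 ± 118 (SD, n = 3 each), 30.6% of NS, a log2 fold change of -1.71 (SE 0.08, adjusted p = 6.4e-08). In both tables the drop was many times the spread between replicates, and no library of one group reached the other.

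ID2 (chromosome 2, 8678845 to 8684461, plus strand) fell to 27.4% of NS with shRNA #1 and 48.4% with shRNA #2. It had 299.3, 308.2 and 303.8 normalized counts with NS shRNA and 92.26, 87.55 and 70.14 with shRNA #1, a log2 fold change of -1.86 (SE 0.12, limma adjusted p = 1.29e-06). In the other table it had 323.0, 334.5 and 327.5 with NS shRNA and 160.7, 172.0 and 144.3 with shRNA #2, a log2 fold change of -1.05 (SE 0.10, adjusted p = 8.41e-06). The groups stood well apart in both tables. ID2 lies over the antisense gene ID2-AS1 and has the pseudogene copy ID2B. The counting was stranded, and reads that match the copy may be missing from its count.

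ID3 (chromosome 1, 23557926 to 23559501, minus strand) changed least of the 3 tested ID genes with either hairpin. With NS shRNA it had 1076, 1128 and 863.3 normalized counts and with shRNA #1 669.9, 670.7 and 787.9. The highest knockdown library lay just under the lowest NS library, and the mean was 69.4% of NS (log2 fold change -0.52, SE 0.11, limma adjusted p = 0.00201). In the table of shRNA #2 the values were 1161, 1224 and 930.8 with NS shRNA and 618.9, 520.9 and 681.0 with the hairpin. Here the groups stood further apart, at 54.9% of NS (log2 fold change -0.86, SE 0.12, adjusted p = 0.000105).

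ID4 (chromosome 6, 19837370 to 19842197, plus strand) was almost unread, with 1, 0 and 1 reads with NS shRNA, 5, 6 and 4 with shRNA #1 and 0, 2 and 1 with shRNA #2. All 3 libraries with shRNA #1 lay above the others. The ratio of 15 reads to 2 was 7.56 per unit of library size (95% interval 1.76 to 68.1, counting error only), while shRNA #2 and NS shRNA were both at 3 reads or fewer in sum and allow no fold. ID4 and BMP2 were thus the genes of this set whose reads with shRNA #1 exceeded those with NS shRNA, at a depth too low for the fit across genes.

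Of the 8 tested genes, 8 had knockdown libraries that did not overlap the NS libraries with shRNA #1, where 69.2% of all genes tested were separated in this way. With shRNA #2 this held for 7, all but BMPR2, where 70.0% of all genes tested were separated. An exact permutation test of a single gene with 3 libraries against 3 cannot give a two-sided p below 0.1, so the calls rest on the fit across genes.

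**Figure D3:**
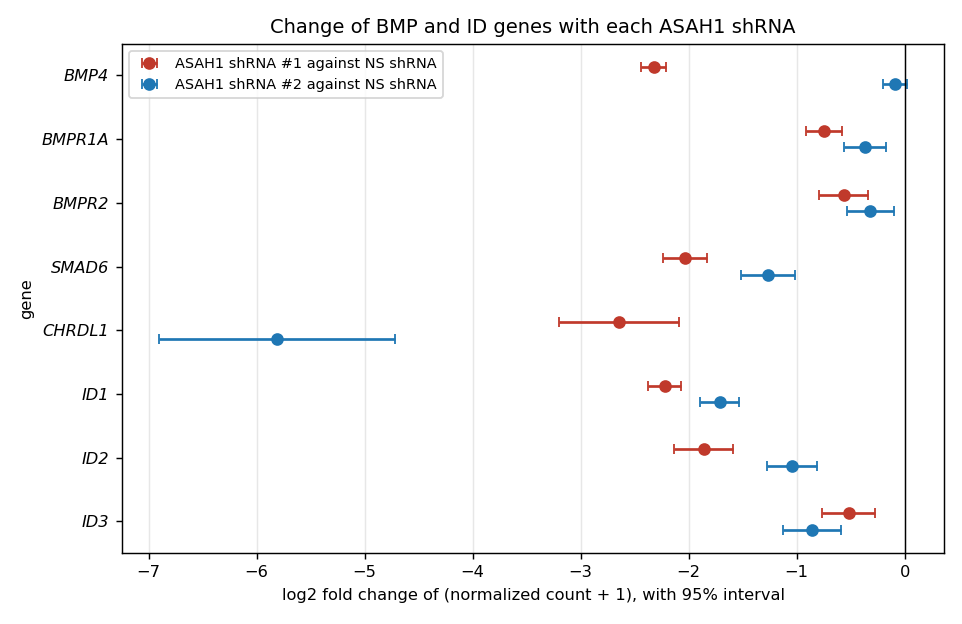
Log2 fold change of normalized count plus 1 against NS shRNA for each tested gene, with the 95% interval from limma. Red marks shRNA #1 and blue shRNA #2 (3 libraries per group). All intervals lie below 0 except that of BMP4 with shRNA #2, and the wide interval of CHRDL1 with shRNA #2 rests on 2 reads.

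The hairpins were then set against each other on the reads recovered from both tables. With edgeR on all 9 libraries, 8 of the 10 genes were tested: 5 were higher with shRNA #2 than with shRNA #1, 2 were lower and BMPR2 did not pass. Over all 14714 genes tested 63.3% passed, 31.1% higher with shRNA #2 and 32.1% lower. The median log2 ratio (shRNA #2 over shRNA #1) was 0.44 for the 8 genes and -0.0052 for all genes. The even balance over all genes depended on the scaling. With upper quartile factors 3744 genes were higher with shRNA #2 and 5607 lower, and the median over all genes was -0.087.

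BMP4 differed most among the genes higher with shRNA #2, at 102 ± 4.61 CPM with shRNA #1 and 478 ± 10.1 CPM with shRNA #2 (SD, n = 3 each), a log2 ratio of 2.23 (edgeR adjusted p = 4.49e-11). ID2 followed with a log2 ratio of 0.82 (adjusted p = 0.00015), SMAD6 with 0.77 (adjusted p = 0.000126), ID1 with 0.51 (adjusted p = 0.000224) and BMPR1A with 0.37 (adjusted p = 0.00244). ID1 stood at 24.0 ± 1.49 CPM with shRNA #1 and 34.3 ± 3.29 CPM with shRNA #2 (SD, n = 3 each). These 5 genes thus fell less with shRNA #2, the hairpin that left less ASAH1 mRNA (log2 ratio of ASAH1 -0.88, adjusted p = 6.82e-08). ID3 ran the other way, at 21.4 ± 2.06 CPM with shRNA #1 and 16.9 ± 2.26 CPM with shRNA #2 (SD, n = 3 each), a log2 ratio of -0.34 (adjusted p = 0.0276). That call was lost without shRNA #1 replicate 3 (adjusted p = 0.106), without shRNA #2 replicate 1 (0.0608), without shRNA #2 replicate 2 (0.103) and with a replicate block (0.051). CHRDL1 was also lower with shRNA #2 (log2 ratio -4.01, adjusted p = 0.000581), a size that depends on the prior count because 2 reads remained. BMPR2 had a log2 ratio of 0.24 (adjusted p = 0.0575), and limma on the same libraries gave a 95% interval of 0.017 to 0.45.

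Levels of different genes were compared as CPM per kilobase of exon, with the union of all GENCODE exons of a gene taken as its length. That union was 8556 bases for SMAD6, 10074 for BMPR1A and 2213 for ID2. It can exceed the length of the mRNA that gave the reads, which were counted on UCSC genes. The order below holds for this choice of length, and another length was not tested. In NS cells BMP4 was highest at 169 ± 5.85, before ID1 at 93.4 ± 5.81 and ID3 at 21.1 ± 2.84 (SD, n = 3 each). BMPR2 followed at 8.17 ± 1.10, ID2 at 4.25 ± 0.0707, BMPR1A at 2.08 ± 0.0545, SMAD6 at 1.43 ± 0.0327 and CHRDL1 at 0.595 ± 0.167. Neighbours in this order did not overlap between libraries, apart from BMP2 and ID4 at the end, which could not be told apart. With shRNA #1 BMP4 stood at 34.1 ± 1.48, ID1 at 20.2 ± 1.26 and ID3 at 14.9 ± 1.40, so the first ranks kept their order at a narrower spacing. BMPR1A (1.25 ± 0.0880) and ID2 (1.18 ± 0.167) overlapped in that group. With shRNA #2 BMP4 stood at 144 ± 3.94, ID1 at 26.0 ± 2.32 and ID3 at 10.6 ± 1.34. On normalized counts BMP4 with shRNA #2 was at 94.0% of NS, as given above. ID2 (1.87 ± 0.176) and BMPR1A (1.47 ± 0.155) did not overlap there, and CHRDL1, ID4 and BMP2 could not be ordered.

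The rest of the pathway was read through lists of 60 further genes, chosen with earlier results of these data known and grouped by role. With shRNA #1, 33 of them were tested, of which 16 were higher, 11 lower and 6 did not pass, with a median log2 fold change of 0.13. With shRNA #2, 35 were tested, of which 19 were higher, 6 lower and 10 did not pass, with a median of 0.39. These counts stand beside the shares over all genes given above, 32.8% higher and 33.3% lower for shRNA #1 and 33.5% and 33.4% for shRNA #2.

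Of the 8 other BMP target genes, 5 were tested in each comparison, with 4 higher and 1 lower with shRNA #1 and 2 higher and 1 lower with shRNA #2. ATOH8, a basic helix-loop-helix factor, was the one that fell, from 372 ± 23.8 to 35.0 ± 8.79 normalized counts with shRNA #1 and from 402 ± 24.4 to 80.2 ± 15.9 with shRNA #2 (SD, n = 3 each). Its log2 fold changes were -3.40 (limma adjusted p = 2.36e-07) and -2.33 (adjusted p = 3.23e-07). MSX2, a homeobox factor, rose from 41.2 to 99.5 normalized counts with shRNA #1 (log2 fold change 1.31, adjusted p = 0.00123) and from 44.6 to 221 with shRNA #2 (2.35, adjusted p = 8.73e-06). HEY1, a repressor that Notch also drives, rose from 8.44 to 55.9 (2.60, adjusted p = 1.01e-05) and from 9.13 to 34.1 (1.80, adjusted p = 0.000199). The listed targets thus moved in both directions, with ATOH8 lower and MSX2 and HEY1 higher with each hairpin.

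Among the 11 SMAD transducers and SMAD regulators, all were tested, with 4 higher and 4 lower with shRNA #1 and 8 higher and 3 lower with shRNA #2. SMAD1, a receptor-regulated SMAD of the BMP branch, fell by 0.79 on the log2 scale with shRNA #1 (limma adjusted p = 3.42e-05) and by 0.56 with shRNA #2 (adjusted p = 0.000516). SMAD5, of the same branch, had 2689 ± 206 normalized counts with NS shRNA and 2633 ± 123 with shRNA #1 (SD, n = 3 each), a log2 fold change of -0.03 (adjusted p = 0.718), and it rose by 0.48 with shRNA #2 (adjusted p = 0.000117). SMURF1, a ubiquitin ligase that marks BMP SMADs for breakdown, rose by 0.55 and 0.62 in the same order, its relative SMURF2 by 0.22 and 0.42 and the SMAD corepressor SKIL by 0.42 and 0.75. SMAD4, the shared partner, had log2 fold changes of -0.26 with shRNA #1 and 0.26 with shRNA #2, and the inhibitory SMAD7 had 0.53 and -0.28, each past the threshold. SMAD4, SMAD5 and SMAD7, and below NOG, BMP6, BMPR1B, TCF3, TCF12, BMP8B, SOST, TGFBR3, TOB1 and LEMD3, were chosen after their values were seen.

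The other ligands, receptors and antagonists were sparse or divided. Of 12 other ligands 2 were tested with shRNA #1 (1 higher, 1 lower) and 4 with shRNA #2 (3 higher, 0 lower), and GDF5 rose with both (log2 fold change 1.12 and 0.59). Of 10 other receptors and co-receptors 6 were tested with shRNA #1 (4 higher, 2 lower) and 5 with shRNA #2 (3 higher, 0 lower), and the type II receptor ACVR2A (0.50 and 0.39) and the co-receptor RGMB (0.27 and 0.75) rose with both. Of 16 other antagonists 7 were tested with shRNA #1 (2 higher, 3 lower) and 8 with shRNA #2 (2 higher, 2 lower). TWSG1, a modulator that binds BMPs, fell by 0.36 on the log2 scale with shRNA #1, and its value with shRNA #2 was -0.16 (limma adjusted p = 0.0472), a call that 8 of the alternatives lost. NOG (noggin), which blocks BMP4, fell from 5053 ± 370 to 3007 ± 213 normalized counts with shRNA #1 (SD, n = 3 each, log2 fold change -0.75, adjusted p = 1.16e-05), and its value with shRNA #2 was -0.10 (adjusted p = 0.329). The ligand BMP6 had 1, 5 and 0 reads with NS shRNA, 1, 27 and 11 with shRNA #1 and 29, 37 and 49 with shRNA #2, where it rose (adjusted p = 0.000211). The type I receptor BMPR1B had 2, 5 and 5 reads with NS shRNA, 43, 50 and 52 with shRNA #1, where it rose (adjusted p = 1.96e-05), and 4, 3 and 4 with shRNA #2. BMP6 was thus read most with shRNA #2 and BMPR1B with shRNA #1. Each reached the mean of 10 needed for a test only through those libraries, so only a rise could be called.

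Of the 3 E proteins that ID proteins bind, 2 were tested in each comparison. TCF3 had log2 fold changes of 0.01 with shRNA #1 (limma adjusted p = 0.865) and 0.54 with shRNA #2 (adjusted p = 2.12e-05), and TCF12 had 0.29 (adjusted p = 0.0411) and 0.16 (adjusted p = 0.294). TCF12 passed with shRNA #1 and TCF3 with shRNA #2.

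**Figure D4:**
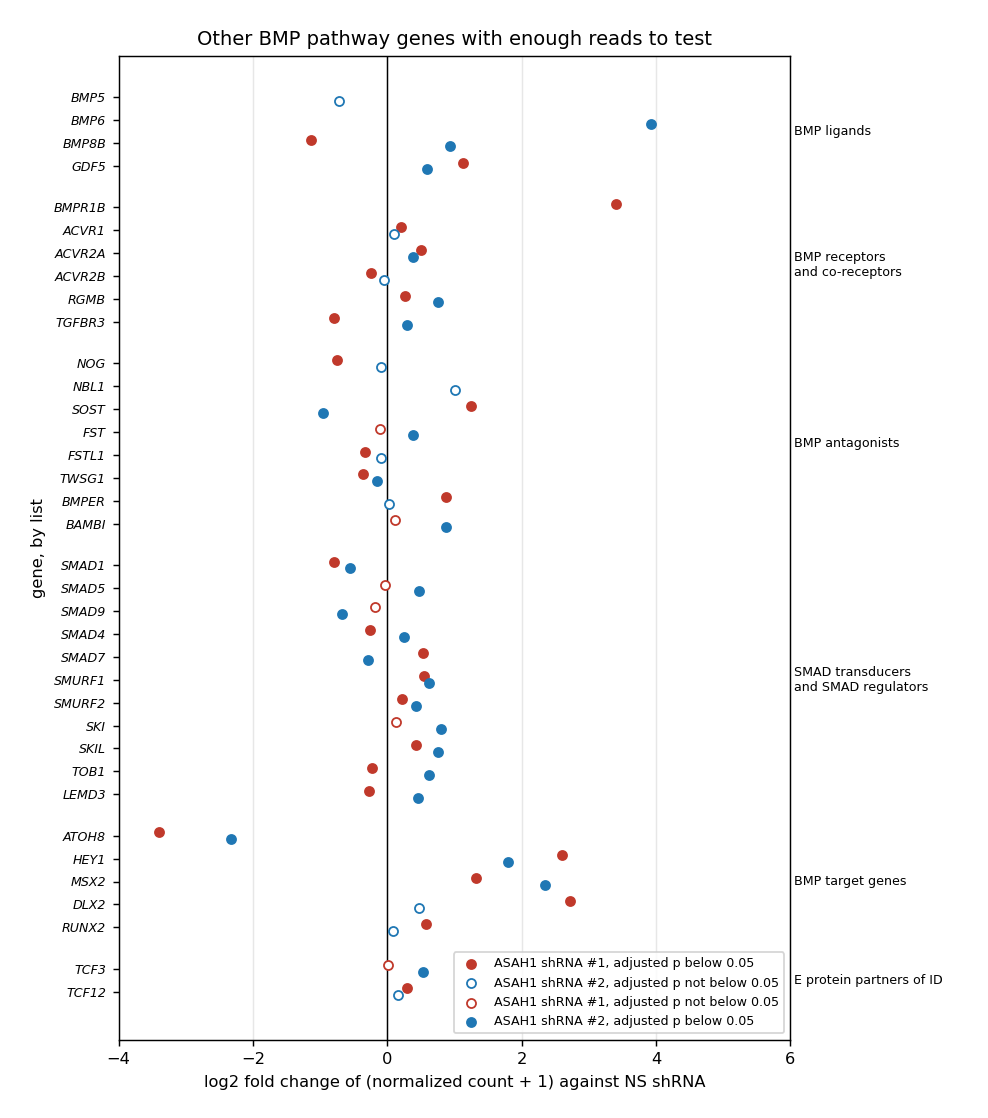
Log2 fold change of normalized count plus 1 against NS shRNA for the other BMP pathway genes with enough reads, grouped by role, with shRNA #1 in red and shRNA #2 in blue, filled where the adjusted p is below 0.05. ATOH8 lies far to the left with both hairpins and HEY1 and MSX2 to the right. BMP8B, SOST, TGFBR3, SMAD4, SMAD7, TOB1 and LEMD3 lie on opposite sides of 0 and are filled for both hairpins.

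The genes most like ID1, ID3 and BMP4 were sought among 11445 genes by the distance between their pairs of log2 fold changes with the 2 hairpins, as a description with no test. METTL7A (distance 0.092), ZNF488 (0.12) and ADAM22 (0.13) lay nearest to ID1, with falls near its own in both comparisons. TBCK (0.0081), SEC31B (0.011) and SIAE (0.022) lay nearest to ID3. For BMP4, whose pattern was a deep fall with shRNA #1 and little movement with shRNA #2, the nearest were RAB17 (0.079, log2 fold changes -2.30 and -0.016), HSPA1A (0.10) and EGLN3 (0.15). HSPA1A shares nearly all of its sequence with HSPA1B, so its count is uncertain. The sign of the small value with shRNA #2 was not stable for RAB17 and EGLN3 when a library was left out.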

How the data were processed

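Single-end RNA-seq libraries of the 9 samples were strand-specific; the labels describe oligo-dT selection of mRNA, and the series design names depletion of ribosomal RNA. The authors trimmed with Trimmomatic 0.36, aligned to hg38 with STAR 2.7.1a, counted on UCSC genes with htseq-count (reverse strand) and applied DESeq2 1.28 to each knockdown with NS shRNA; a second methods paragraph names Bowtie2, RSEM and edgeR. The authors deposited 2 tables of normalized signal (reads over a size factor); their fold changes, errors and p-values from DESeq2 were not used. With 100% of values whole within 0.05 reads, reads were recovered, and the NS libraries had 0 differences between tables; 28 symbols turned into dates were restored. All per-sample columns were mapped (0 unmatched).

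R 4.3.3 was used with limma 3.58.1 (trend, log2 of normalized count + 1, mean of at least 10, two-sided, Benjamini-Hochberg over all genes, 0.05) within each table. edgeR 4.0.16 (quasi-likelihood, TMM, all 9 libraries) compared the hairpins. Alternatives were other pseudocounts, filters and scalings, no trend, edgeR, DESeq2 1.42.0, a replicate block and each library left out. Fits were tested on simulated data with 200 changed genes. Far more genes were called here, so that test does not cover change on this scale. Chi-square per gene between replicates was 5.26 to 23.2, so no library was a copy.

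Named were the 10 members, ASAH1, list genes past 0.05 in the same direction with both hairpins (up to 12 by size) and 3 nearest genes each for ID1, ID3 and BMP4 (mean of at least 100 in both tables); genes beyond this rule are marked in the text. Members and lists were chosen with earlier results of these data known. Positions come from GENCODE v44 on hg38. Intervals on reads and floors of 3 reads cover counting error only.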

Additional observations from a re-analysis of the deposited data

Results flagged for a closer look

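Genes are listed here because their change against the same NS shRNA libraries differed between the hairpins in the direct edgeR test of shRNA #2 against shRNA #1. Higher with shRNA #2 were BMP4 (log2 ratio 2.23), ID2 (0.82), SMAD6 (0.77), ID1 (0.51) and BMPR1A (0.37). Lower with shRNA #2 were CHRDL1 (-4.01, and -0.39 by limma with a pseudocount of 1) and ID3 (-0.34). That is 7 of the 8 tested genes, where 63.3% of all genes tested differed.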

How the results depend on the processing

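For the 8 tested genes among the 10 described, the direction held under every alternative run, and the number of the 10 genes called stayed within 1.5 times its main value. With shRNA #1 it was 8 throughout when each library was left out, and 7 to 9 under the other settings. With shRNA #2 it was 6 to 7 with a library left out and 6 to 8 otherwise, and between the hairpins 6 to 8 and 7 to 10. Any count above 8 includes BMP2 or ID4, which had too few reads for the main fits. Both were read more with shRNA #1 than in the other groups, unlike the 8 tested genes. For the other pathway genes it was 25 to 28 and 23 to 31 with shRNA #1 (main 27) and 23 to 26 and 22 to 26 with shRNA #2 (main 25).

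Same-numbered libraries did not deviate together (correlations -0.19, -0.13 and -0.27 with shRNA #1 and -0.098, -0.18 and -0.32 with shRNA #2), so the replicate number marked no pairing. Differently numbered NS and knockdown libraries correlated between -0.068 and 0.27 with shRNA #1 and between -0.11 and 0.26 with shRNA #2. A block by replicate number does not take up such a pattern, and its source was not tested. With a replicate block 8 and 7 of the 10 genes were called with shRNA #1 and shRNA #2 (57.4% and 59.8% of all genes tested), 6 between the hairpins (59.3%), and 24 of the other pathway genes in each comparison with NS shRNA.

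Calls near the threshold depended on settings. BMPR2 between the hairpins passed without a filter (0.24, edgeR adjusted p = 0.0255), with DESeq2 (adjusted p = 0.0478) and without any 1 of 4 libraries: NS shRNA replicate 1 (0.0288) or 3 (0.037), shRNA #1 replicate 1 (0.0456) or shRNA #2 replicate 3 (0.0311). TWSG1 with shRNA #2 missed the threshold in 8 alternatives, with adjusted p from 0.0502 (DESeq2) to 0.178 (limma without NS shRNA replicate 2). The sign turned for RAB17 with shRNA #2 (main -0.016) without NS shRNA replicate 2 (0.020) and without shRNA #2 replicate 2 (0.082, the highest value with a library left out, the lowest being -0.11), for EGLN3 (main 0.057) without shRNA #2 replicate 3 (-0.0032, the highest being 0.098), and for SMURF1 between the hairpins (main 0.06) with upper quartile factors (-0.018). The cause was not tested. The fitted size of CHRDL1 rests on 2 reads with shRNA #2 and ran from -8.19 to -3.92 against NS shRNA and from -6.55 to -0.39 between the hairpins. Depth limits BMP2, ID4 and CHRDL1, and 3 libraries a group of 1 cell line with 1 NS hairpin limit the rest.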
